A study of Mus musculus with 2 samples.

Results

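The transcripts described here are those in a pooled mouse transcript list whose names start with U and that have 3 or more exons. They were chosen by name and structure alone: alignment blocks separated by a gap under 30 bp were joined into exons, and 8063 of the 87129 U transcripts, out of 110003 transcripts in the list, then had at least 3 exons. RNA came from V6.5 mouse embryonic stem cells, an untreated pluripotent line cultured over irradiated mouse embryonic fibroblasts, and went into 2 strand-specific libraries, 1 of polyadenylated RNA and 1 from which ribosomal RNA had been removed. Positions are on mm9. The list gives no read count and no value per library, so depth is unknown, the libraries were not compared, and RNA from the fibroblast layer cannot be told apart from stem cell RNA. The sources used here do not say what the prefix U stands for, nor FT, BROAD or WHITEHEAD, which start the other names. They also do not say whether every transcript of the list was assembled from these 2 libraries. Every interval below is a 95% interval that covers counting error only, by the Wilson method for a share, the Newcombe method for a difference of shares and order statistics for a median.

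Long noncoding RNAs are transcribed by RNA polymerase II and are often capped, spliced and polyadenylated like messenger RNAs. Many start close to a protein-coding promoter and run away from it on the other strand, an arrangement called divergent transcription, while others lie antisense to a coding gene or apart from any. Removal of introns distinguishes such a transcript from the short unspliced RNAs that also leave promoters, and a chain of several introns is a structural fingerprint by which a transcript can be recognised in an annotation.

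Members were recognised in that way: a run of intron, exon and intron lengths was searched for among the transcripts of GENCODE on the matching chromosome and strand, and since GENCODE is on GRCm38, only lengths and no positions were compared. The sequences that follow are from RefSeq (GRCm38.p6) or from GENCODE transcripts, and each belongs to a gene that a member matched. The first set shows promoters, from 250 bases before to 50 bases after the annotated start, with each CG in capitals, because CG content differed between divergent genes and genes apart from coding genes. Lhx1os and Evx1os are divergent from homeobox genes of the early embryo, and Firre is an X-linked RNA that helps to organise chromosomes in the nucleus.
Lhx1os, chr11:84525410-84525709, plus strand: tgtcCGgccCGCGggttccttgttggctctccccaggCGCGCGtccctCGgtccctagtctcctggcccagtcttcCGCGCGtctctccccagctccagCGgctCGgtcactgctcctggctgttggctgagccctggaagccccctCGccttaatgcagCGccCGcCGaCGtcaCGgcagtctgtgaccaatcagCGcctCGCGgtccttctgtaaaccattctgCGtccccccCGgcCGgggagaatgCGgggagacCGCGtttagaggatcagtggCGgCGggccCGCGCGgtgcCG
Evx1os, chr6:52314783-52315082, minus strand: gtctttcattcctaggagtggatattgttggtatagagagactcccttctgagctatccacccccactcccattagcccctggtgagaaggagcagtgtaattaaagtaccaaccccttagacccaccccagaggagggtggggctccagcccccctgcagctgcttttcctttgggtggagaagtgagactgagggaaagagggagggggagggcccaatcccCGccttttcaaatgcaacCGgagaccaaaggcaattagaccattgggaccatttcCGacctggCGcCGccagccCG
Firre, chrX:50635272-50635571, minus strand: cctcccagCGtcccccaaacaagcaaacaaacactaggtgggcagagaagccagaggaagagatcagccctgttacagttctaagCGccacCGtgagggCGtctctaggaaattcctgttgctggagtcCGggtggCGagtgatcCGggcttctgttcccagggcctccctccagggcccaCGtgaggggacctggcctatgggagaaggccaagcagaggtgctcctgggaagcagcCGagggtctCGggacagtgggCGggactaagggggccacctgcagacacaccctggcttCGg
The 300 bases of Lhx1os held 33 CG pairs, with an observed to expected CpG ratio of 0.926, those of Firre held 12 (ratio 0.41) and those of Evx1os held 6 (ratio 0.252). Of all 32851 RefSeq promoters of this length 10.8% had a ratio at least that of Lhx1os, 47.9% at least that of Firre and 64.0% at least that of Evx1os. These examples do not all follow the class difference, since the divergent Evx1os was below Firre, which lies apart from coding genes. The class of a gene rests on any of its annotated starts, however. Whether the start printed for Evx1os is the one divergent from Evx1 was not tested.

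The second set shows exon junctions. In each line the last 15 bases of exon 1 are followed by the first 15 bases of exon 2. Capitals mark the last 2 bases of exon 1 and the first base of exon 2. There the mammalian consensus is AG before the intron and G after it. The sequence is that of the annotated transcript whose intron chain a member matched in full.
Firre, chromosome X, minus strand of GRCm38, exon 1 ending at 50634945 and exon 2 starting at 50630995: cacggctcttgtaAGGtatgcttcacctct
Xist, chromosome X, minus strand of GRCm38, exon 1 ending at 103473716 and exon 2 starting at 103470921: gctgtttagactaCAGgatgaatttggagt
Miat, chromosome 5, minus strand of GRCm38, exon 1 ending at 112228609 and exon 2 starting at 112228356: cgaggaggagccgAGCtagatgcacatggg
Pvt1, chromosome 15, plus strand of GRCm38, exon 1 ending at 62038201 and exon 2 starting at 62107148: tggatccaccctcTTGtctgattttcttaa
Tunar, chromosome 12, plus strand of GRCm38, exon 1 ending at 105337108 and exon 2 starting at 105337230: tcggctgcccggcGGCcaccctccgagatc
Of these, Firre had AG before and G after the removed intron, Miat had the AG alone, Xist and Pvt1 the G alone, and Tunar neither. Over the 9235 distinct junctions of all members that matched an annotated chain in full, the last exon base was G at 81.9% (81.1 to 82.7%), against 23.3% of all bases in the same transcripts. AG ended the exon at 57.9% of junctions (56.9 to 58.9%), against 7.85% of neighbouring base pairs. G opened the next exon at 46.1% (45.0 to 47.1%), and AG before together with G after was present at 27.1% (26.2 to 28.0%). The share with a final G was 81.7% in noncoding genes, 83.2% in protein-coding genes and 82.4% in pseudogenes.

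The third set shows short coding sequences. Some members matched genes that the annotation calls protein-coding on the strength of a small open reading frame, and start and stop codons are in capitals. Mrln encodes myoregulin, a muscle micropeptide that inhibits the calcium pump SERCA, and Apela encodes the secreted hormone of embryonic stem cells also called Elabela or Toddler. Nbdy encodes a micropeptide of the mRNA decapping complex, and Tunar was studied as a noncoding RNA of pluripotency and neural differentiation before its peptide was annotated.
Mrln, chr10:70219496-70219636, plus strand of GRCm38, in 1 coding exon: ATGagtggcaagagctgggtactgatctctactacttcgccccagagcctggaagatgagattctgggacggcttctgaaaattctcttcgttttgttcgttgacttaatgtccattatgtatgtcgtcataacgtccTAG
Apela, chr8:65035666-65036965, minus strand of GRCm38, in 2 coding exons: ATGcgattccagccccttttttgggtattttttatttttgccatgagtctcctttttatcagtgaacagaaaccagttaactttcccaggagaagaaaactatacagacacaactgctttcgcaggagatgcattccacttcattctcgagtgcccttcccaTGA
Nbdy, chrX:153723700-153723906, plus strand of GRCm38, in 1 coding exon: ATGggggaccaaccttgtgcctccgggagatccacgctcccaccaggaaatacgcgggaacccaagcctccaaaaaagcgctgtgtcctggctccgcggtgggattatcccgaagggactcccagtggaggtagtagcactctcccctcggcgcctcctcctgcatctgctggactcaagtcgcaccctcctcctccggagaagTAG
Tunar, chr12:105381384-105381530, plus strand of GRCm38, in 1 coding exon: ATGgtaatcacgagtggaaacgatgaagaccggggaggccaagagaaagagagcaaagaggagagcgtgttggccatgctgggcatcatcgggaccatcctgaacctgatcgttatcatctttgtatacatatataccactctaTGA
These frames had 46, 54, 68 and 48 codons before the stop. Mrln, Apela and Tunar members carried the intron chain of the transcript that holds the frame shown.

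The members were longer and far more spread out on the genome than U transcripts just below the exon limit. Since the selection rule asks for more exons, and so for more introns, part of this contrast follows from the rule itself. The median member had 4 exons and a summed exon length of 925 nt (912 to 943 nt; quartiles 594 and 1677.5 nt), and the range ran from 95 to 26361 nt. The 8662 U transcripts with 2 exons had a median of 602 nt (591 to 611 nt), and the 70404 unspliced U transcripts 452 nt (450 to 453 nt). Exactly at the limit, the 3781 members with 3 exons had a median of 737 nt. The median span on the genome was 10818 bp (10348 to 11244 bp) for members and 1762.5 bp (1699 to 1813 bp) for U transcripts with 2 exons. Exons filled a median of 9.70% of a member's span.

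Exon number fell off steeply, with a long tail. Of the members, 46.9% had 3 exons, 23.5% had 4 (1894 members) and 18.0% had 5 or 6 (1451), which leaves 937 with 7 or more (11.6%). The median summed length rose from 737 nt with 3 exons to 1600 nt with 7 or more. In the tail, 83 members had 20 or more exons, whereas 1 transcript each had that many among the 2849 FT and 1848 WHITEHEAD transcripts with 3 or more exons, and none of the 2522 BROAD transcripts did. The longest chain had 133 exons, against 20 for FT, 15 for BROAD and 21 for WHITEHEAD names.

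**Figure D1:**
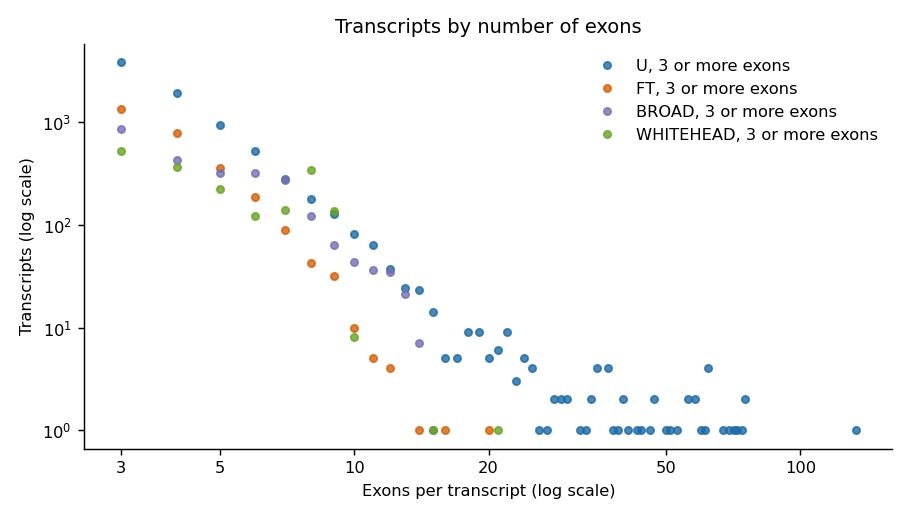
Number of transcripts (vertical, log scale) with each number of exons (horizontal, log scale) for U, FT, BROAD and WHITEHEAD transcripts with 3 or more exons. U transcripts fall from 3781 with 3 exons to single transcripts beyond 50 exons, and the one farthest to the right has 133.

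Internal exons were of one size class whatever the name of the transcript. Over 15306 distinct internal exons of members the median was 128 nt (127 to 129 nt; quartiles 88 and 188 nt), against 127 nt for FT, 126 nt for BROAD and 124 nt for WHITEHEAD transcripts. The ends differed more. First exons of members had a median of 134 nt (132 to 137 nt), close to 140 nt in FT transcripts, but last exons had a median of 315 nt (306 to 325 nt) against 631 nt (600 to 667 nt) in FT transcripts. In BROAD and WHITEHEAD transcripts the last exon had a median of 302.5 and 264 nt. The median over 22839 distinct introns was 1561 bp (1524 to 1605 bp), shorter than the 2579 bp of FT transcripts (2476 to 2693 bp) and longer than the 1355 bp of BROAD, the 1262 bp of WHITEHEAD and the 679 bp of U transcripts with 2 exons (632 to 726 bp). First introns of members (median 1578 bp) were longer than last introns (1260 bp).

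A small share of introns was shorter than mammalian splicing usually allows. Among members, 593 of 22839 distinct introns (2.60%, 2.40 to 2.81%) were under 70 bp, against 9.61% of the introns of U transcripts with 2 exons and 0.472% (0.342 to 0.650%) of those of FT transcripts with 3 or more exons. They lay in 545 members, of which 56 had no longer intron. A gene name was found for 17.8% of these 545 members (14.8 to 21.2%), while 61.9% of all members had one. Gaps of this length in an alignment can be introns or deletions relative to the genome, and which they are was not tested. At the other extreme, the longest intron had 7124207 bp and belonged to an unnamed member with 3 exons on chromosome 7, within chr7:39351859-46480344.

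The 8063 members lay in 5379 loci, a locus being members of 1 strand with overlapping spans, with 2760 loci on the plus and 2619 on the minus strand. A single member made up 4124 loci, 756 loci held 2 members, 466 held 3 to 9, and 33 held 10 or more with 613 members between them. More than 1 intron chain was present in 1246 loci (23.2%, 22.1 to 24.3%). Of the members, 96.2% were on autosomes and X, and the remaining 305 on Y or on unplaced sequence. The X chromosome held 504 members, 12.4% of its U transcripts (11.4 to 13.4%), the highest share of any autosome or X. Chromosome 7 (11.8%) and chromosome 12 (11.4%) followed with intervals that overlap that of X, and chromosomes 18 (7.50%) and 16 (7.53%) had the lowest shares. Of the 508 members on chromosome 12, 128 lay in the immunoglobulin heavy-chain locus described below, and the interval treats them as separate.

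Loci with several members differed mostly in their choice of splice sites and of first and last exons. Among the 1255 loci with 2 or more members, 1067 (85.0%) had a donor joined to several acceptors or the reverse. Taken singly, a donor had several acceptors in 64.4% of the loci (61.7 to 67.0%), and an acceptor several donors in 64.0% (61.3 to 66.6%). Several first exons, told apart by their donor, were present in 824 loci (65.7%, 63.0 to 68.2%), and several last exons, told apart by their acceptor, in 819 (65.3%, 62.6 to 67.8%). A member that starts or ends inside the chain of another also counts here. Whether such members are incomplete models or use other starts and ends was not tested. An internal exon that another member skipped was found in 342 loci (27.3%, 24.9 to 29.8%), and an intron held inside an exon of another member in 199 (15.9%, 13.9 to 18.0%). The 567 skipped exons had a median of 123 nt (115 to 131 nt), and 221 of them (39.0%) had a length divisible by 3.

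Part of the introns recurred in transcripts with other names. Of the members' introns, 6455 (28.3%, 27.7 to 28.9%) were also introns of FT transcripts, which is 65.3% of the 9884 distinct FT introns. BROAD or WHITEHEAD transcripts held 1327 (5.81%). An intron of the same position on the other strand was present in FT, BROAD or WHITEHEAD transcripts for 3 member introns (0.0131%). Whole chains were shared by 1671 members with an FT transcript (20.7%), by 87 with a BROAD and by 56 with a WHITEHEAD transcript. No intron in common with any of these names was found for 4598 members (57.0%, 55.9 to 58.1%). Where a member and a single FT transcript had the same chain, the 5′ ends were identical in 1304 of 1603 cases (81.3%) and the 3′ ends in 1022 (63.8%). Whether these sets of names are independent of each other is not known here.

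Matching named 4992 members (61.9%, 60.8 to 63.0%) as 3546 genes, against 35 members (0.434%) when the opposite strand was searched. Position differences between the builds offered a check: of 669 matched genes with another matched gene within 50000 bp, 663 (99.1%) had the identical difference between pool and annotation position as a neighbour. Members found 3014 of the 5229 noncoding genes with a run of their own, a background of 57.6%, and 310 of 18624 protein-coding genes, a background of 1.66%. By type, 1625 lincRNA genes, 1014 antisense genes and 322 processed transcripts were found. Antisense genes were found most completely of these (67.8%, 65.4 to 70.1%, against 53.3%, 51.5 to 55.0%, for lincRNA genes). Of the 3014 noncoding genes, 1220 (40.5%, 38.7 to 42.2%) were matched by members alone and by no other transcript of the list.

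The type of gene changed with exon number. Among named members, 92.0% of those with 3 exons matched a noncoding gene and 5.71% a protein-coding gene, while with 20 or more exons 8 matched a noncoding and 74 of 83 a protein-coding gene (89.2%). Pseudogenes reached 24.4% of the named members with 10 to 19 exons. The share of members with a name was 51.9% (50.3 to 53.5%) with 3 exons, 66.8% (64.7 to 68.9%) with 4 and 73.5% (71.2 to 75.7%) with 5 or 6, and a member with more exons offers more runs to match. When the whole chain had to lie in 1 annotated transcript the share fell beyond 4 exons, with 51.9% named at 3 exons, 54.6% at 4, 46.4% at 5 or 6, 32.4% at 7 to 9, 17.8% at 10 to 19 and 7.23% at 20 or more. Members without a name had a median of 3 exons and 812 nt (786 to 840 nt), against 4 exons and 1020 nt (991 to 1058 nt) for named ones, and a shorter median intron (1049 bp, 976 to 1125 bp, against 1814 bp, 1748 to 1878 bp). On Y and unplaced sequence 15 of 305 members had a name (4.92%).

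**Figure D2:**
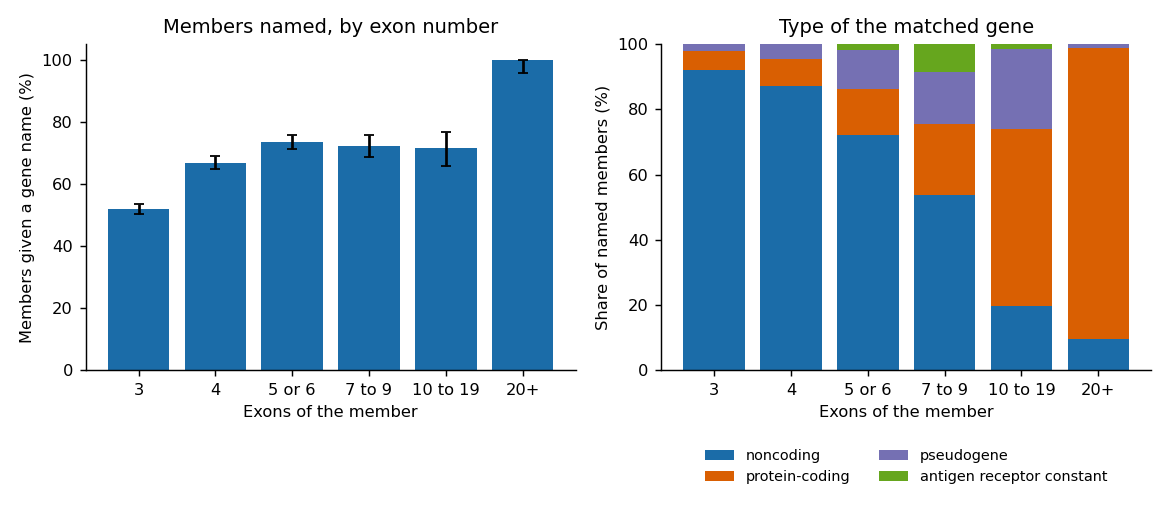
Left, share of members given a gene name (percent, bars, with Wilson 95% intervals) by number of exons. Right, types of the matched genes as a percentage of named members: noncoding genes make up 92.0% of named members with 3 exons, and protein-coding genes 89.2% of those with 20 or more.

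Many members reproduced an annotated structure to the base. The full intron chain of an annotated transcript was carried by 3341 members (41.4%, 40.4 to 42.5%). In the 3339 with a single such transcript, the first exon had exactly the annotated length in 77.1% (75.7 to 78.5%) and the last exon in 61.4% (59.7 to 63.0%), and both did in 1636 (49.0%). The 5′ end was shorter than annotated in 320 of the 3339 members (9.58%), and the 3′ end in 591 (17.7%). The other ends that differed were longer than annotated, which was the more frequent case at both ends. Whether the annotation drew on the same data as the list was not tested.

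The 8 loci with the most exons matched 7 large protein-coding genes and 1 gene that GENCODE lists as noncoding. Gm11639 on chromosome 11 (mm9 104546973 to 104891861) had 6 members with 133, 43, 35, 14, 7 and 5 exons, the longest of 12395 nt. Dnah14, an axonemal dynein heavy chain, reached 75 exons and 11463 nt, Dnah3, another dynein heavy chain, 62 exons and 12306 nt, and Cfap54, a protein of cilia and flagella, 60 exons. Muc16, a giant cell-surface mucin on chromosome 9 (mm9 18299863 to 18526240), held the longest member of all, with 75 exons and 26361 nt, of which 1 exon took 11544 nt. Csmd2 reached 72 exons, Hmcn2, an extracellular matrix hemicentin, 62, and Sptbn5, a spectrin gene listed as a processed transcript, 69. Fsip2, a gene of the sperm flagellum, came next to Muc16 in length with 19293 nt, followed by Xist with 17923 nt.

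Among noncoding genes, long chains of exons were rare. After Sptbn5, the gene with the most exons was Gm29825 on chromosome 9 (mm9 114025346 to 114100572; 4 members, up to 26 exons and 3519 nt), followed by Gm10634 with 25 exons and 3667 nt, and by Gm9801 and Firre with 22 exons each. Platr21, Gm6639 and Gm20557 had 19, 18 and 18. Only 206 of the 3014 noncoding genes found had a member with 7 or more exons, and 1404 had no member with more than 3.

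The largest locus lay in the immunoglobulin heavy-chain region, where antibody genes are assembled by DNA rearrangement in B cells. It covered chr12:114493041-116134882 on the minus strand and held 128 members with 128 different chains built from 276 distinct introns, none of which was present in FT, BROAD or WHITEHEAD transcripts. The median member there spanned 71337.5 bp and the longest 1592833 bp. A constant-region gene was matched by 50 of them: 17 matched Ighm, 13 Ighg1, 6 Igha, 4 each Ighg2b and Ighg3, and 2 each Ighd, Ighe and Ighg2c, so that all 8 matchable immunoglobulin constant genes were found. At the T cell receptor gamma locus, Tcrg-C4 was matched by 4 members, Tcrg-C1 by 3 and Tcrg-C2 by 2. Whether the antigen receptor transcripts of the list came from the stem cell libraries was not tested.

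Other loci were also crowded. On chromosome 14 (mm9 42078416 to 43667972) 45 members with as many chains matched 9 genes, among them Gm8011 and 1700024B05Rik, and a second locus (20351916 to 20405026) held 22 members of Gm2237 and Gm2244. Chromosome 6 (mm9 70165394 to 70690548) held 24 members with as many chains, the longest spanning 511567 bp. Gm30211 was the single matched gene there, and genes with no run of their own could not have been named. Unplaced sequence of chromosome 8 held 23 unnamed members with up to 17 exons. Whether these loci hold near-identical gene copies or antigen receptor genes was not tested, and their structures are reported as uncertain. Naaladl2 on chromosome 3 (span 1141365 bp) and a locus on chromosome 5 (span 732577 bp, 17 members, with Gm32877 among its matches) were the remaining loci of greatest span.

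Well-studied noncoding RNAs were found at about the background share, some as many isoforms and others as a single transcript. Of 30 that could be matched, 18 were found (60.0%, 42.3 to 75.4%, near the background of 57.6%). Xist, which coats and silences an X chromosome, had 2 members that shared a first exon of 9518 nt: 1 with 7 exons and 17923 nt, which matched an annotated chain, and 1 with 8 exons and 12255 nt. Jpx, a neighbour that activates Xist, had 2 members with 3 and 4 exons, and is named with Airn, Sox2ot and Six3os1 after the values were seen. Firre had 8 members with 22, 20, 15, 14, 9, 6, 5 and 5 exons and 708 to 4279 nt, built from 43 distinct introns of which 26 were present in BROAD or WHITEHEAD transcripts and 8 in FT transcripts. Only the 2 members with 5 exons carried an annotated chain.

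Pvt1, a neighbour of the Myc oncogene, had 16 members with 4 to 9 exons across mm9 61869541 to 62209651 of chromosome 15. Told apart by outermost splice site, they had 7 first exons and 3 last exons, where incomplete models would also count, and 5 carried an annotated chain. Dleu2, which hosts a microRNA of the miR-15/16 cluster, had 11 members with 4 to 7 exons, and Miat, a nuclear RNA of neural and retinal cells, 4 with 4 to 8 exons and 747 to 4142 nt. Pantr1 had 6 members with 3 to 6 exons, and Fendrr, needed for heart and body wall development, 1 with 6 exons and 2380 nt. Nespas, an antisense RNA of the imprinted Gnas locus, had 2 with up to 5 exons, and Airn, the antisense RNA that silences Igf2r on the paternal chromosome, 1 with 3 exons and 842 nt. Sox2ot, which runs across Sox2, had 1 with 3 exons and 1039 nt. Six3os1, opposite the forebrain and eye regulator Six3, had 10 with 3 to 5 exons, and each carried an annotated chain. The 12 that could be matched and were not found included Dlx6os1, Ftx, Gas5, H19, Lncenc1 and Meg3. Dlx6os1 and Ftx are neural and X-linked, Gas5 hosts snoRNAs, and H19 and Meg3 are imprinted.

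**Figure D3:**
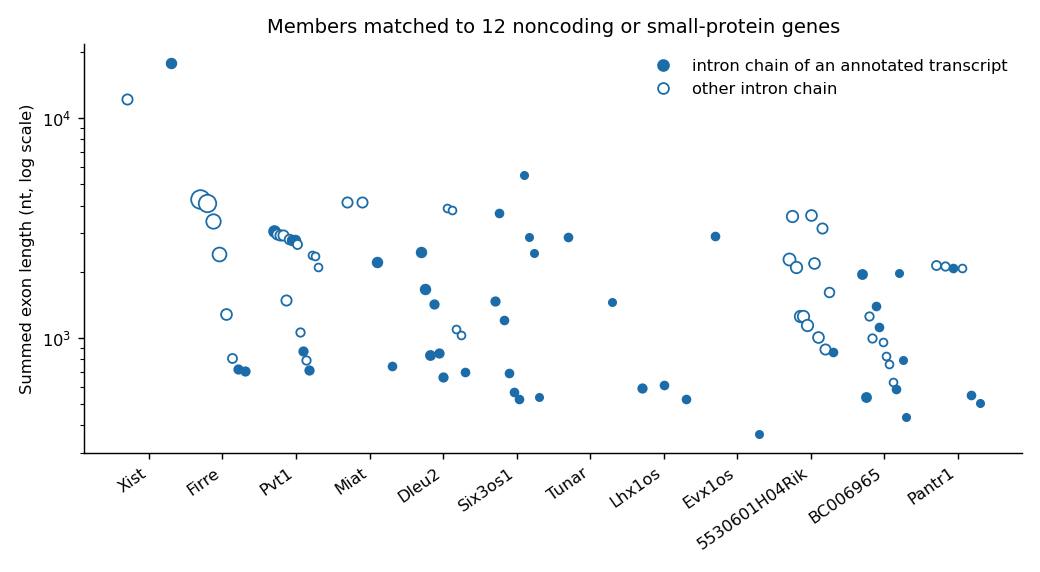
Summed exon length (nt, log scale) of every member matched to 12 genes, 1 point per member, with larger points for more exons and filled points where the intron chain is that of an annotated transcript. Firre runs from 708 to 4279 nt with open points for all but its shortest forms, and all 3 Lhx1os members lie between 524 and 607 nt.

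Noncoding genes matched by members were more often annotated as divergent from, or antisense to, a coding gene than noncoding genes that the list lacked. A gene was called divergent when an annotated start lay 0 to 2000 bp upstream of a protein-coding transcript's start on the other strand, on GRCm38. The closest pair of annotated starts gave the distance. Positions and distances of named genes, here and below, are thus those of the annotation, and the members' own starts were not used. Of the 3014 noncoding genes found, 467 were divergent (15.5%, 14.2 to 16.8%), against 188 of the 1936 matchable noncoding genes found in no transcript of the list (9.71%, 8.47 to 11.1%), a difference of 5.78 percentage points (3.91 to 7.61). When only the outermost start of each gene counted, the shares were 8.83% and 5.63%, a difference of 3.20 points (1.72 to 4.62). Antisense overlap without divergence was present for 923 (30.6% against 21.7%, difference 8.93 points, 6.44 to 11.4). Overlap on the same strand was present for 13 (0.431% against 5.73%). By the most exons in a member, the divergent share was 14.1% with 3 (12.4 to 16.0%), 17.2% with 4 (14.8 to 19.9%), 16.6% with 5 or 6 (13.8 to 19.8%) and 15.0% with 7 or more (10.8 to 20.6%). No difference between 7 or more and 3 exons was detectable (0.946 points, -3.71 to 6.73). The median gap between the closest divergent starts was 133 bp (quartiles 76 and 285.5 bp), and 303 of the 467 (64.9%) lay within 200 bp. Among the 188 divergent genes not found the median was 179 bp (quartiles 95 and 564.5 bp), and 99 (52.7%) lay within 200 bp.

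CpG content followed the position class. In the first 200 nt of the annotated transcript with the outermost start, an observed to expected CpG ratio of 0.6 or more was reached by 45.8% of divergent genes found (41.4 to 50.4%, n = 467), by 15.8% of antisense genes (13.6 to 18.3%) and by 7.14% of genes apart from coding genes (5.98 to 8.50%). The difference between divergent genes and genes apart was 38.7 points (34.0 to 43.4). For 370 of the 467 divergent genes (79.2%) the transcript read began at a start that was itself divergent, and 43.8% of these were CpG-rich (38.8 to 48.9%). Among divergent genes, those found exceeded those not found by 10.2 points (1.82 to 18.1), and by 9.03 points (-0.0185 to 17.6) where the start read was divergent, whereas among genes apart the difference was -0.598 points (-2.60 to 1.34). The 310 coding genes matched by members were CpG-rich in 23.9% of cases (19.5 to 28.9%), against 54.1% (53.4 to 54.8%) of the other matchable coding genes. A RefSeq promoter was matched by symbol for 307 of the 467 divergent genes (65.7%), too few for a check on promoters themselves, which is therefore void.

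**Figure D4:**
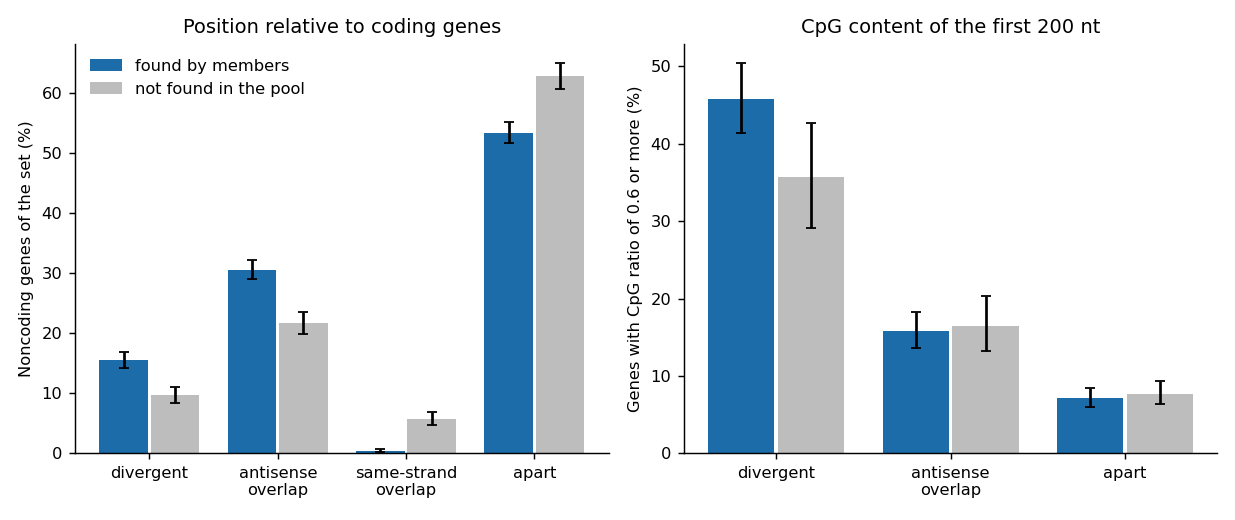
Left, percentage of noncoding genes in each position class, for 3014 genes found by members (blue) and 1936 genes found nowhere in the list (grey), with Wilson 95% intervals. Right, percentage of each class with a CpG ratio of 0.6 or more in the first 200 nt, which is highest for divergent genes in both sets (45.8% and 35.6%).

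The divergent genes with the most exons neighboured coding genes of several kinds. Gm10634 (25 exons) had 41 bp between its nearest annotated start and that of Mthfsl, and 9130019P16Rik (14 exons, 4485 nt) lay 65 bp from Wipf3, an actin regulator. Gm17094 (11 exons) lay 45 bp from 1700009N14Rik, and 2610316D01Rik (10 exons) 137 bp from the protocadherin gene Pcdh10. 5530601H04Rik on the X chromosome (mm9 102232534 to 102274948) lay 146 bp from Pbdc1 and had 13 members with 4 to 11 exons. Its members had 3 first exons by donor and 6 last exons by acceptor, where incomplete models would also count. Of its 25 distinct introns 14 were present in FT transcripts and 10 in BROAD or WHITEHEAD transcripts.

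Transcription factors that direct cell lineage had annotated divergent partners that members matched. Of 36 lineage regulators, none was itself matched (0 of 29 that could be), but 10 had a divergent noncoding gene that members matched (27.8%, 15.8 to 44.0%), against a background of 2.11% over 22028 protein-coding genes. The regulators were chosen with earlier results of these data in view, so the count is a description, and all 10 are named after their values were seen. Evx1os, 46 bp from the homeobox gene Evx1, had 2 members, of 2916 nt with 4 exons and 364 nt with 3. Lhx1os, 124 bp from Lhx1, a regulator of head and kidney development, had 3 members with 4 or 5 exons that shared 1 first and 1 last exon by their splice sites. Irx3os lay 107 bp from Irx3 with 1 member of 4 exons and 2990 nt, and Hand2os1 123 bp from Hand2, a regulator of heart and limb, with 3 members of 388 to 558 nt.

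The other partners had wider gaps or more isoforms. BC006965 lay 247 bp from Sox9, a regulator of cartilage and testis, and had 14 members with 3 to 6 exons across mm9 112525239 to 112637952 of chromosome 11. Otx2os1 lay 1063 bp from Otx2, a regulator of the forebrain, with 2 members of 5 exons each that spanned 124061 and 49521 bp. Gm37587 lay 119 bp from Sox17, a regulator of endoderm, and Gm43050 747 bp from Tbx5, a regulator of heart and forelimb, each with 1 member of 3 exons. 6430503K07Rik lay 1019 bp from Nkx2-2 and Pax6os1 1529 bp from Pax6, each with 1 member of 4 exons. Outside this list, and named after their values were seen, Pantr1 lay 925 bp from Pou3f3, Fendrr 1275 bp from Foxf1 and Tug1 85 bp from Morc2a.

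Symbols ending in os, with a number or none, mark genes on the opposite strand of a coding gene, but the pattern also takes in coding genes such as Fos, Icos and Nos1. Of 217 such symbols that could be matched, 156 were found (71.9%, 65.6 to 77.4%). Among the 190 annotated as noncoding, a restriction made after the values were seen, 154 were found (81.1%, 74.9 to 86.0%). All noncoding genes gave 57.6%, and genes of the antisense type, to which most of these symbols belong, gave 67.8%. Among the 26 annotated as protein-coding 1 was found. The most exons were in Arhgap33os (12 exons, 2648 nt), followed by Fcnaos with 9 and by Bcas1os2, Foxl2os, Rab10os and Nckap5los with 8 each, then Dbhos and Macrod2os1 with 7. Foxl2os lay divergent, 489 bp from the ovarian regulator Foxl2, and Rab10os had 6 members with up to 3750 nt. The noncoding Adap2os, Banf2os, Bcas3os2 and Cdk19os and the protein-coding Cebpzos and Crxos were not found. Platr genes, noncoding RNAs listed by their link to pluripotency, were found for 13 of 22 (59.1%, 38.7 to 76.7%), near the background. Platr21 had 19 exons, Platr30 had 6, Platr22, Platr28 and Platr6 had 5, and Platr20, Platr26 and Platr3 had 4, whereas Platr10, Platr11, Platr13, Platr15, Platr16 and Platr25 were among the 9 not found.

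Hosts of small RNAs were scarce among the noncoding genes found. A snoRNA gene lay inside the annotated span, on the same strand, of 8 of the 3014 genes (0.265%, 0.135 to 0.523%), against 47 of the 1936 not found (2.43%, 1.83 to 3.21%), a difference of -2.16 points (-2.96 to -1.51). Of 12 genes with Snhg symbols, mostly hosts whose introns are processed to snoRNAs, 3 were found: Snhg6 with 4 exons and Snhg7os and Snhg8 with 3. Snhg1, Snhg11, Snhg12, Snhg14, Snhg15 and Snhg17 were among the 9 not found. A miRNA hairpin lay inside 13 genes found (0.431%, 0.252 to 0.737%) and inside 36 not found (1.86%, 1.35 to 2.56%), a difference of -1.43 points (-2.15 to -0.831). The median annotated span was 14435.5 bp for genes found and 12609 bp for genes not found.

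The mature miRNAs of 3 of these hosts are printed with the seed, bases 2 to 8, in capitals, because the seed decides which messages they repress. They are from RefSeq on GRCm38.p6. 3110039I08Rik, with 3 members of up to 5 exons, spans the cluster of miR-100, let-7a-2 and miR-125b-1, Dleu2 hosts miR-16, which restrains the cell cycle, and Mir9-3hg, with 3 members of up to 5 exons, hosts the neural miR-9.
mmu-miR-100-5p in 3110039I08Rik, chr9:41531437-41531458, plus strand: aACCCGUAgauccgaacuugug
mmu-let-7a-2-3p in 3110039I08Rik, chr9:41536777-41536797, plus strand: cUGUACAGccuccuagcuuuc
mmu-miR-125b-5p in 3110039I08Rik, chr9:41581940-41581961, plus strand: uCCCUGAGacccuaacuuguga
mmu-miR-16-5p in Dleu2, chr14:61631936-61631957, minus strand: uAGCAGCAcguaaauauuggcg
mmu-miR-9-5p in Mir9-3hg, chr7:79505279-79505301, plus strand: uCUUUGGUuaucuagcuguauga
No seed was shared between these lines. Of 6 genes named as miRNA hosts, Mir9-3hg and Mir124-2hg (3 exons, 1465 nt) were found, and Mir124a-1hg, Mir22hg, Mir670hg and Mir99ahg were not.

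The coding genes among the members had short coding sequences more often than the rest. Of 310 coding genes found, 29 had a longest annotated coding sequence of at most 303 nt with the stop codon, which is at most 100 residues (9.35%, 6.59 to 13.1%), against 377 of 18229 matchable coding genes not found (2.07%, 1.87 to 2.29%), a difference of 7.29 points (4.52 to 11.05). The median coding sequence was 966 nt (864 to 1143 nt) against 1323 nt (1302 to 1341 nt). The members named here were chosen after their values were seen. Mrln had 1 member of 3 exons and 441 nt, Apela 1 of 4 exons and 975 nt, and Spaar, whose peptide regulates mTORC1 at the lysosome, 1 of 3 exons and 930 nt. Nbdy had 3 members of 658 to 859 nt and Tunar 2 of 1460 and 2876 nt, across mm9 106574804 to 106622140 of chromosome 12. Kantr had 4 members with up to 5 exons, and E130218I03Rik had 7.

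No gene of either cell type marker list was matched. This covered 13 matchable markers of pluripotent cells, among them Pou5f1, Nanog and Esrrb, and 14 of fibroblast feeder cells, among them Col1a1, Vim and Pdgfrb. The intervals allow up to 22.8% and 21.5%. Since coding genes in general were matched at 1.66%, the list does not show which cells the members came from.

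Facing 5′ ends within 2000 bp were about as frequent at member loci as at other U loci. Within 500 bp they were more frequent than at unspliced loci, but not detectably more than at loci with 2 exons. A locus on the other strand started within 2000 bp, facing away, at 302 of 5379 member loci (5.61%, 5.03 to 6.26%), against 5.06% of loci of U transcripts with 2 exons that overlap no member locus on their strand (difference 0.553 points, -0.258 to 1.38) and 5.20% of unspliced ones (0.410 points, -0.1995 to 1.08). Within 500 bp the shares were 2.68% for members and 2.07% for unspliced loci (difference 0.606 points, 0.191 to 1.08). U loci with 2 exons had 2.49% (difference 0.185 points, -0.387 to 0.770). Loci of FT transcripts with 3 or more exons had 2.85% (9 of 316, 1.51 to 5.32%). These FT loci are also only those that overlap no member locus, so they do not stand for all 2849 such FT transcripts. The median distance was 606 bp (quartiles 127.5 and 1197.25 bp), and 206 of the 302 partners (68.2%) were unspliced. Few coding genes are in the list, so this arrangement is measured between transcripts of the list and not against coding genes.

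Overlap with the other strand rose with span. A locus of the other strand overlapped 1434 member loci (26.7%, 25.5 to 27.9%), against 13.8% (12.99 to 14.7%) for U transcripts with 2 exons, whose median span was 1728.5 bp where member loci had 10049 bp. Among loci under 2000 bp the shares were 9.95% and 10.7%, a difference of -0.762 points (-3.11 to 1.998). From 2000 to 10000 bp they were 15.6% and 13.4%, from 10000 to 50000 bp 30.4% and 26.3%, and above 50000 bp 64.1% and 49.5%, the last a difference of 14.6 points (4.31 to 24.7). Member loci were also longer within these classes, with median spans of 5150 against 3739 bp, 19895.5 against 17407 bp and 88526 against 76656 bp. Span was thus not fully matched within a class. Exons overlapped exons at 472 member loci (8.77%, 8.05 to 9.56%) and at 6.59% of the loci with 2 exons.

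**Figure D5:**
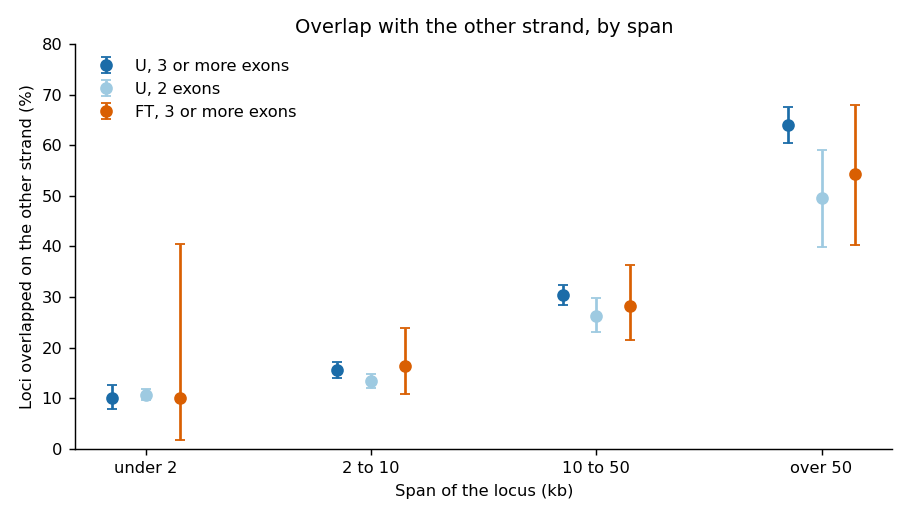
Percentage of loci overlapped by a locus of the other strand (with Wilson 95% intervals) in 4 classes of span, for U transcripts with 3 or more exons, U transcripts with 2 exons and FT transcripts with 3 or more exons. The share climbs with span in all sets, from 9.95% to 64.1% for U transcripts with 3 or more exons. The FT loci are only the 316 that overlap no member locus, with 10 of them in the class of shortest span.

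Unspliced U transcripts also lay inside the introns of member loci, mostly on the strand of the member. On autosomes and X, 3579 of 68196 unspliced U transcripts (5.25%, 5.08 to 5.42%) lay wholly within a member locus on the same strand without touching a member's exon, and 1793 (2.63%, 2.51 to 2.75%) did so on the other strand. The share on the same strand was 66.6% (65.4 to 67.9%). Whether these are pieces of unspliced precursor or separate transcripts was not tested.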

How the data were processed

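Per the labels' protocols, 1 polyadenylated and 1 ribosome-depleted library were made with random hexamers and dUTP strand marking. The submitters' processing notes name TopHat and mm9; version, assembly steps and filters are not given in these sources. The authors deposited 1 BED list with 12 columns for the whole series, whose score column is 0 for every U transcript; that deposited score was not used. No value per library and no read count were used, so depth is unknown.

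Python 3.11.15, numpy 2.4.6 and scipy 1.17.1 were used. Blocks with gaps under 30 bp were joined. Runs of intron, exon and intron lengths listed under a single gene of GENCODE M21 (GRCm38) voted for a name, and a tie gave none. Genes with no run of their own cannot be matched. The matching and intervals were tested on simulated data.

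Members and lists were chosen with earlier results of these data known. Named loci are the 8 with the most exons in 1 member, the 5 with the longest summed exons, the 5 with the longest span, the 5 with the most chains and the 5 divergent genes with the most exons. From each list up to 8 found genes, by exon number, and up to 6 not found are named; others are said to be named after their values were seen. Alternatives changed the joining gap, exon limit, chromosomes, matching, distances and overlap. No test between groups was possible with 1 pooled list.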

Additional observations from a re-analysis of the deposited data

How the results depend on the processing

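Of 93 alternative values, 71 stayed within the interval of the reported value, or for counts of members and loci within 1.5 times it, and 22 moved beyond. With 4 or more exons the loci fell to 2665, loci with several chains were 25.6%, introns shared with BROAD or WHITEHEAD transcripts 6.36%, median summed exon length 1134.5 nt, median internal exon 126 nt, median intron 1606 bp, members named 70.8%, noncoding genes found 30.8%, loci overlapped on the other strand 33.4% and loci with a choice of donor or acceptor 88.2%. On autosomes and X alone 29.2% of introns were shared with FT transcripts and 64.2% of members were named. Without joining blocks the median intron was 1496 bp and 60.5% of members were named, and with gaps under 50 bp joined these were 1614 bp and 63.2%. Requiring the whole intron chain in 1 annotated transcript left 48.5% of members named and 53.8% of noncoding genes found. Within 500 bp 13.1% of noncoding genes found were divergent and 2.68% of loci had a facing 5′ end. With only the outermost start of each gene 8.83% were divergent, and requiring overlap of exons left 8.77% of loci overlapped. Leaving out the immunoglobulin heavy-chain locus, an alternative chosen after seeing the data, moved none of the 12 values it was run on, and neither did leaving out 3 loci, those with the most members on chromosomes 13, 1 and 14. The bases at intron ends were not read, since whole chromosome sequence was not used here. No paired analysis was possible because each group has 1 library and the list pools both. Intervals describe features of 1 list and carry no error between cultures.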
